A study of Mus musculus with 26 samples.

Results

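The Zfp genes expressed in mouse embryonic fibroblasts (MEFs) are described here. They were taken as the protein-coding genes whose symbol is Zfp followed by a number and whose level was at least 1 TPM (RSEM's unit of transcript abundance, scaled by gene length and library size) in both wild-type RNA-Seq libraries, and 270 of the 365 protein-coding Zfp genes of the GENCODE M21 annotation met this rule. The members were thus chosen by their measured TPM in the wild-type libraries, which is given as a description only. The study deleted an RNA-binding region of the chromatin protein ATRX and asked how this changed the places of ATRX and of the Polycomb complex PRC2 on chromatin and gene expression. Wild-type cells (WT) are female MEFs, ATRXΔRBR cells are 1 clone of these MEFs in which CRISPR removed the RBR from endogenous ATRX, and ATRX KD cells are MEFs with an shRNA against ATRX, selected with puromycin. RNA-Seq had 2 libraries for each of the 3 genotypes, with summed estimated counts of 13320635 and 11856636 (WT), 9574174 and 13694802 (ATRXΔRBR) and 9051693 and 21723647 (ATRX KD). CUT&RUN, which releases and sequences the DNA around an antibody-bound protein, had 2 peak lists each for ATRX in WT and ATRXΔRBR and for EZH2 and H3K27me3 in all 3 genotypes. The methods call the 2 libraries of a group biological replicates, without saying from which cultures they came.

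Zfp genes encode proteins with C2H2 zinc fingers, short modules that fold around a zinc ion and that, in a row, read a stretch of DNA. Many of them also carry a KRAB box, which recruits TRIM28 and with it the H3K9 methyltransferase SETDB1, and are known as silencers of transposable elements. They sit in clusters of related copies, and their finger arrays lie mostly in a single last exon, where ATRX and H3K9me3 are known to be found in other cells. ATRX is a chromatin remodeler that deposits histone H3.3 with DAXX. H3K27me3, a mark of silent genes, is placed by EZH2, the enzyme within PRC2.

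The libraries labelled ATRX KD were not clearly lower in Atrx RNA. The study checked its knockdown lines for protein by western blot. It describes ATRX as depleted in them and reports less DAXX protein. The data used here hold RNA and peaks only. Atrx had 8278 and 5195 estimated counts (WT), 3531 and 4291 (ATRXΔRBR) and 3768 and 11891 (ATRX KD). The log2 fold change of ATRX KD against WT was -0.15 ± 0.21 (SE, edgeR adjusted p = 0.605), and that of ATRXΔRBR against WT was -0.63 ± 0.22 (edgeR adjusted p = 0.14). On the TPM scale Atrx was 233 and 141 in WT against 331 and 512 in ATRX KD, which is the opposite direction. The raw RNA-Seq files of WT and ATRXΔRBR carry the name of the same sequencing run and those of ATRX KD name none, so that a run and the ATRX KD label cannot be told apart. Every value with ATRX KD below is of the libraries with that label.

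The cells carried part of the fibroblast markers only. Col1a2, a collagen chain, was between 1772 and 2848 TPM and Vim, an intermediate filament, between 3903 and 6511 TPM over the 6 libraries. Thy1 was listed at 0 in every library, and Lum reached 0.09 TPM in 1 library. Dcn was 1.54 and 0.79 TPM in WT, 3.88 and 4.22 in ATRXΔRBR and listed at 0 in ATRX KD. Sox2, a pluripotency factor, was 43.9 and 37.1 TPM (WT), 18.7 and 17.5 (ATRXΔRBR) and 1.1 and 0.55 (ATRX KD), while Pou5f1 and Zfp42 were listed at 0 throughout. The summed TPM of the 9 fibroblast markers was 9507 and 7187 (WT), 11519 and 11476 (ATRXΔRBR) and 10981 and 11544 (ATRX KD). Single markers in this sum went both ways. Col3a1 was 28.1 and 32.2 TPM (WT), 20.3 and 15.8 (ATRXΔRBR) and 0.36 and 0.75 (ATRX KD). Fn1 was 684 and 806 TPM (WT), 1731 and 1357 (ATRXΔRBR) and 1451 and 1550 (ATRX KD). The part of these differences in the values below was not tested.

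The finger arrays of the members are long, and most of the coding length of the median member lies in the last exon. The median member had 10 matches to the C2H2 finger pattern (quartiles 7 and 13, highest 33), and 8 members had none, among them Zfp503 and Zfp703, which belong to a family with an atypical finger, and Zfp36, an RNA-binding protein of another finger type. The last exon held a median of 85.2% of the coding length of a member and 10.7% of that of the 10904 other protein-coding genes at 1 TPM or more in both WT libraries, called other expressed genes below. A KRAB A box was found by a strict pattern in 89 members and by a wider pattern over all coding transcripts in 133. The fingers are joined by a conserved linker (threonine, glycine, glutamate, lysine, proline), whose codons were searched on both strands as ACNGGNGANAANCCN. These letters were in 68.58% of the coding parts of the members' last exons and in 0.78% of those of other expressed genes.

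The array is shown for Zfp111, a gene near 0 counts in ATRXΔRBR cells (below), as a stretch of its last exon on mm10 at chr7:24198403-24198654, minus strand, with the linker codons in capitals. Its last exon held 12 such runs, 3 of them in this stretch, and the spacing of the capitals is the repeat of the fingers.
Zfp111: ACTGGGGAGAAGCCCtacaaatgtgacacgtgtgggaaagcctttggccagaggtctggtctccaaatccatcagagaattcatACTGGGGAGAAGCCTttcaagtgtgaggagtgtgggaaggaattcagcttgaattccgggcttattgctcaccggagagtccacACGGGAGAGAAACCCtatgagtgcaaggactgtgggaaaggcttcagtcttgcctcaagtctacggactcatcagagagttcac

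The members were spread over the genome in clusters, with 66 on chromosome 7, 37 on chromosome 17, 23 on chromosome 13 and 19 on chromosome 8. Their level was low. The median member had 7.92 and 11.1 TPM in the WT libraries, and the median of other expressed genes was 31.1 and 35.4 TPM. The median WT level was 6.98 TPM for members with the strict KRAB box and 11.8 TPM for the 181 without. The highest was Zfp207, a spindle assembly factor, with 222 and 347 TPM in WT, followed by Zfp706 (217 and 247 TPM), Zfp91 (122 and 138 TPM), Zfp740 (93.2 and 120 TPM) and Zfp638 (97.2 and 95.6 TPM). Zfp658, Zfp612 and Zfp300 stood just inside the rule, with a lower WT value of 1.01, 1.02 and 1.03 TPM. Zfp937, Zfp960 and Zfp712 stood just outside, with 0.96, 0.9 and 0.89 TPM.

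The 2 replicates of a genotype differed in the Zfp genes as a group. The median member deviated from its own mean over the 6 libraries by -0.10 in WT replicate 1 and 0.13 in WT replicate 2 on the log2(CPM + 1) scale, where CPM is the count scaled by library size after TMM. It deviated by 0.09 in ATRXΔRBR replicate 1 and -0.17 in ATRXΔRBR replicate 2. In ATRX KD the values were 0.08 and 0.04. Other expressed genes stayed between -0.02 and 0.03 in the 6 libraries. Of the members, 33.0% were above their own mean in WT replicate 1 and 67.4% in WT replicate 2. The replicates of WT and of ATRXΔRBR thus lay on both sides of 0 and overlapped between these genotypes.

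**Figure D1:**
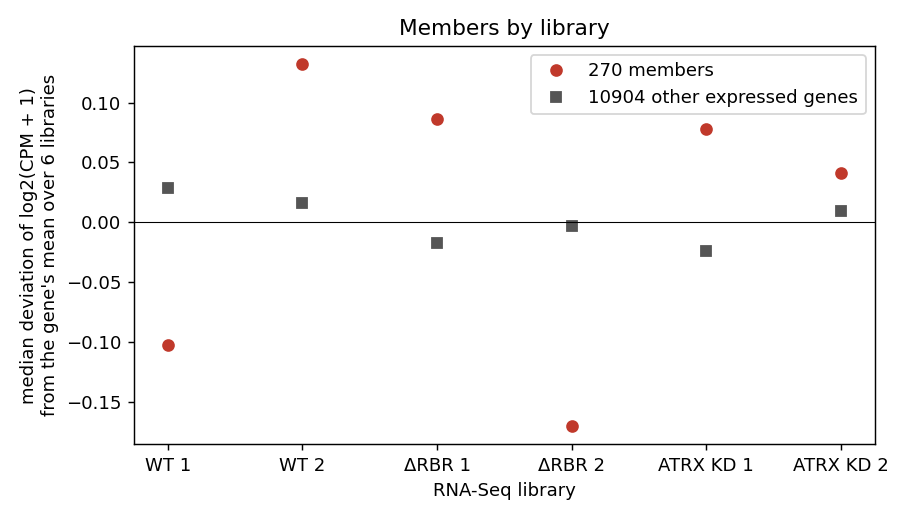
Median deviation of log2(CPM + 1) from each gene's mean over the 6 libraries (y axis) in each RNA-Seq library (x axis), for members (circles) and other expressed genes (squares). The members run from -0.17 in ATRXΔRBR replicate 2 to 0.13 in WT replicate 2, and other expressed genes stay near 0.

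Whether deletion of the RBR changed the expression of Zfp genes was asked by comparing ATRXΔRBR with WT. Of 270 members, 13 were lower and 7 were higher in ATRXΔRBR cells (edgeR quasi-likelihood test, Benjamini-Hochberg adjusted p under 0.05 over all 16334 genes tested). This is 7.41% of the members, beside 6.85% of all genes tested (4.07% lower and 2.79% higher) and 7.86% of protein-coding genes at 1 TPM or more in both WT libraries (4.84% lower and 3.02% higher). The members' share was near both backgrounds. The calls were uneven over chromosomes, with 5 of the 15 members on chromosome 6 and 2 of the 3 on chromosome 14. On chromosomes 7, 17, 13 and 8 they were 4 of 66, 2 of 37, 0 of 23 and 1 of 19. The share of all genes called on each chromosome is not given here, and the unevenness was not tested. With at least 10 counts required in every library 10 members were called (3.88%, beside 5.005% of all genes), and with no filter on low counts 29 were (10.7%, beside 7.45%). The members' median log2 fold change was -0.04, against -0.02 over all genes tested. Its sign depended on single libraries. It was -0.16 without WT replicate 1, 0.12 without WT replicate 2, -0.19 without ATRXΔRBR replicate 1 and 0.08 without ATRXΔRBR replicate 2. A gene silent in WT cannot be a member, so that a rise from silence cannot be counted. Lower calls also exceeded higher ones over all genes tested. The part of the rule in the members' excess of lower calls was not tested, and nothing is read from it.

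A set of members lost nearly all counts in ATRXΔRBR cells. Of the 13 lower members, 7 had 10 counts or fewer in both ATRXΔRBR libraries, a limit chosen after the values were seen, and 203 of the 528 lower other expressed genes did. The 7 were 2.59% of members, beside 1.86% of other expressed genes. In ATRX KD the order was the opposite, with 4 members (1.48%) and 250 other expressed genes (2.29%) lower and at 10 counts or fewer. These differences in share were not tested. In bulk RNA, fewer cells with a transcript and less of it per cell cannot be told apart.

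Zfp612, a KRAB gene with 16 fingers at chr8:110079746-110092741, had 34 and 29 estimated counts (WT), 0 and 0 (ATRXΔRBR) and 46 and 120 (ATRX KD). It was at least 19.5-fold lower in ATRXΔRBR than in WT when the 0 was set to a floor of 3 counts over the group (edgeR adjusted p = 0.0042). ATRXΔRBR was the only genotype without counts. It is also one of the members just inside the rule.

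Zfp810, a KRAB gene at chr9:22276748-22307648, had 33 and 42 counts (WT), 0 and 1 (ATRXΔRBR) and 27 and 69 (ATRX KD). The ratio of WT to ATRXΔRBR was 69.7 (95% interval 12.1 to 2789, counting error only, edgeR adjusted p = 0.0036). Zfp111 at chr7:24193947-24211443, whose array is printed above, had 44 and 72 counts (WT), 0 and 2 (ATRXΔRBR) and 138 and 276 (ATRX KD). Its ratio was 53.9 (95% interval 14.6 to 450.4, edgeR adjusted p = 0.0039). In both genes the ATRXΔRBR libraries stood below all 4 others without overlap.

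Zfp850, with 16 fingers at chr7:27984854-28014115, had 74 and 84 counts (WT), 2 and 2 (ATRXΔRBR) and 104 and 293 (ATRX KD). Its log2 fold change in ATRXΔRBR was -5.11 ± 0.47 (SE, edgeR adjusted p = 0.00086). Zfp239 at chr6:117862100-117873291 had 38 and 28 counts (WT), 0 and 4 (ATRXΔRBR) and 81 and 191 (ATRX KD). Its log2 fold change was -3.88 ± 0.73 (edgeR adjusted p = 0.019). Both had more counts in each ATRX KD library than in either WT library.

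Zfp618 at chr4:62965573-63139708 had 152 and 104 counts (WT), 6 and 7 (ATRXΔRBR) and 67 and 169 (ATRX KD), with a log2 fold change of -4.15 ± 0.37 in ATRXΔRBR (edgeR adjusted p = 0.00078). Zfp422 at chr6:116624016-116628999 was the exception, since it fell in both: it had 75 and 105 counts (WT), 5 and 3 (ATRXΔRBR) and 1 and 9 (ATRX KD). Its log2 fold change was -4.33 ± 0.50 in ATRXΔRBR (edgeR adjusted p = 0.0022) and -4.49 ± 0.49 in ATRX KD (edgeR adjusted p = 0.001).

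Other lower members kept more of their counts. Zfp503, a repressor of the NET family, had 1329 and 863 counts (WT), 164 and 217 (ATRXΔRBR) and 663 and 1559 (ATRX KD), a log2 fold change of -2.39 ± 0.22 in ATRXΔRBR (edgeR adjusted p = 0.0011). Zfp704 had 408 and 432 counts (WT), 64 and 84 (ATRXΔRBR) and 569 and 1395 (ATRX KD), a log2 fold change of -2.39 ± 0.21 (edgeR adjusted p = 0.00093). Zfp185, on chromosome X, had 51 and 38 counts (WT), 11 and 17 (ATRXΔRBR) and 25 and 70 (ATRX KD), and its call was lost without WT replicate 1 or either ATRXΔRBR library. Zfp820, Zfp248 and Zfp277 were also lower, by 1.40, 0.99 and 0.85 on the log2 scale. The 7 higher members changed by between 0.84 for Zfp110 and 1.90 for Zfp13, which had 17 and 13 counts in WT and 38 and 67 in ATRXΔRBR. The others were Zfp658, Zfp605, Zfp956, Zfp282 and Zfp395. Of the members in this paragraph, Zfp248 lost its call without any single library, Zfp110 without WT replicate 1 or ATRXΔRBR replicate 1, Zfp282 without WT replicate 1, Zfp605 without ATRXΔRBR replicate 1, and Zfp820, Zfp13 and Zfp956 without ATRXΔRBR replicate 2.

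**Figure D2:**
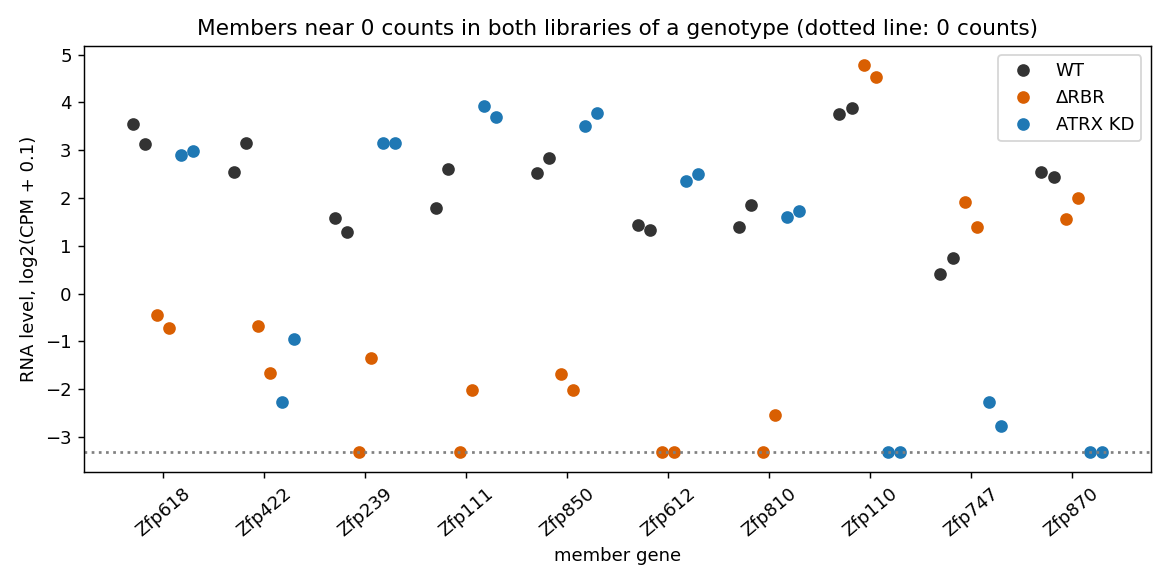
RNA level on the log2(CPM + 0.1) scale (y axis) of the 10 members with 10 counts or fewer in both libraries of a genotype (x axis), each point a library. The ATRXΔRBR points of Zfp612 and the ATRX KD points of Zfp110 and Zfp870 lie on the dotted line of 0 counts, and Zfp422 is low in both genotypes.

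The genes beside the members near 0 counts in ATRXΔRBR were mostly not called there. Zfp612 lies between Phlpp2 and Cmtr2, whose log2 fold changes in ATRXΔRBR were 0.25 and -0.30 (edgeR adjusted p = 0.687 and 0.407). Zfp850 lies between Zfp780b, at 0.03, and Psmc4, at -0.28. Zfp810 lies between Zfp599, at -0.15, and Anln, at 0.14. Beside Zfp111, Zfp235 was at 0.19 and Zfp93 at -1.42, with an edgeR adjusted p of 0.137. Of the 14 neighbours of the 7 genes, the only one called was Akna beside Zfp618, which was higher (1.14, edgeR adjusted p = 0.046). In ATRX KD against WT, Cxcl12, Zfp637 and Hnrnpf were called lower (-1.74, -0.91 and -0.77). Rgs3, Akna and Zfp599 were called higher there (0.80, 1.05 and 0.84). Zfp612 and Zfp810 overlap other annotated genes, on the opposite and on the same strand, and counts shared with these are possible.

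The libraries labelled ATRX KD were compared with WT next. Of 270 members, 36 were higher and 31 were lower in ATRX KD than in WT, which is 24.8%, beside 33.0% of all genes tested (15.2% higher and 17.8% lower) and 41.4% of expressed protein-coding genes (19.1% higher and 22.3% lower). The difference from these backgrounds was not tested, and the count of 67 was 35 without ATRX KD replicate 2 and 145 without WT replicate 2. With no filter on low counts 81 of 270 members were called, a larger share than the 24.9% of all genes in that fit, so that the order turned. The balance of directions also depended on the WT library. The members' median log2 fold change was 0.02, and it was -0.10 without WT replicate 1 and 0.21 without WT replicate 2. Zfp110 was at 176 and 176 counts (WT), 260 and 316 (ATRXΔRBR) and 0 and 0 (ATRX KD), at least 144-fold lower than in WT (edgeR adjusted p = 0.00017). Zfp870 was at 75 and 64 counts (WT), 27 and 54 (ATRXΔRBR) and 0 and 0 (ATRX KD), at least 56.9-fold lower (edgeR adjusted p = 0.00058). Zfp747 had 16 and 19 counts in WT and 1 and 1 in ATRX KD. Zfp110 was higher in ATRXΔRBR and at 0 in ATRX KD. Zfp358 fell by 1.92 on the log2 scale, Zfp932 by 1.56, Zfp771 by 1.34, Zfp532 by 1.13, Zfp248 by 1.10 and Zfp444 by 1.09. The call of Zfp932 was lost without WT replicate 2 or ATRX KD replicate 2 and with DESeq2.

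Among the members higher in ATRX KD, Zfp13 changed most, with a log2 fold change of 2.14 ± 0.36 (edgeR adjusted p = 0.0053). Zfp239 (1.74) and Zfp111 (1.56), near 0 counts in ATRXΔRBR, were higher in ATRX KD than in WT, as was Zfp612 (1.07), whose call was lost without either ATRX KD library and with DESeq2. Zfp945 (1.46), Zfp27 (1.35), Zfp26 (1.34), Zfp39 (1.19), Zfp697 (1.14), Zfp703 (1.12), Zfp398 (1.12) and Zfp652 (1.08) were also higher. Since ATRXΔRBR and ATRX KD were each compared with the same WT libraries, no overlap of their calls is given.

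The comparison of ATRX KD with ATRXΔRBR used no library of the member rule. Of 270 members, 51 were higher and 35 were lower in ATRX KD, which is 31.9%, beside 34.7% of all genes tested (16.2% higher and 18.5% lower) and 41.7% of expressed protein-coding genes (19.5% higher and 22.3% lower). The share of higher calls, 18.9%, was near that of expressed protein-coding genes, and the share of lower calls, 13.0%, was below both backgrounds, a difference that was not tested. With no filter on low counts the share called was 37.8% of members and 24.9% of all genes, which is the opposite order. The count of 86 was 54 without ATRX KD replicate 2 and 143 without ATRXΔRBR replicate 1. The median member was 0.03 higher on the log2 scale. This median was 0.16 without ATRXΔRBR replicate 1 and -0.06 without ATRXΔRBR replicate 2, so that the balance of directions depended on the ATRXΔRBR library. The genes near 0 counts were chosen by these ATRXΔRBR libraries, so that their differences are a description: Zfp111 with 7.16 ± 0.48, Zfp850 with 6.09 ± 0.38, Zfp810 with 5.87 ± 0.70, Zfp239 with 5.60 ± 0.52 and Zfp618 with 3.71 ± 0.33. Zfp612 was also called higher, with no fold given beyond its 0 counts in ATRXΔRBR, and Zfp422 was low in both. Zfp820 differed by 1.71 and Zfp93 by 1.77. Zfp704 differed by 3.28 ± 0.16 and Zfp503 by 2.11 ± 0.14. Zfp947 and Zfp3, with 10 and 4 and with 9 and 5 counts in ATRXΔRBR, differed by 2.76 and 2.13. In the other direction, Zfp358 differed by -2.43 ± 0.20, Zfp658 by -1.81 ± 0.31 and Zfp444 by -1.54 ± 0.24. Zfp110 and Zfp870, at 0 counts in both ATRX KD libraries, were called lower.

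**Figure D3:**
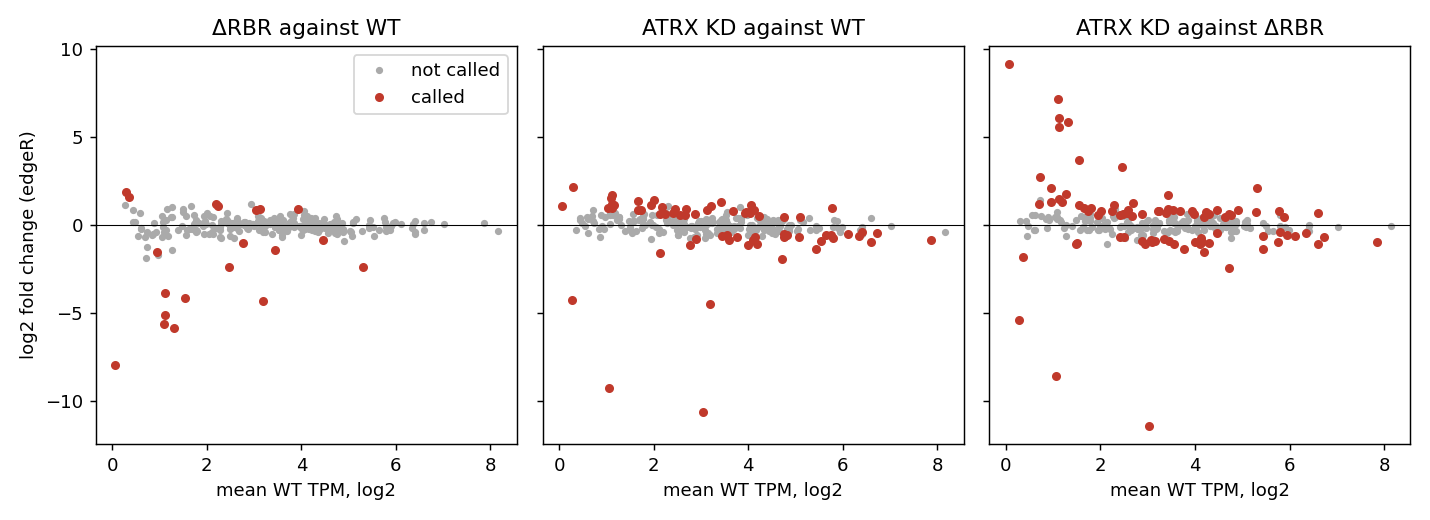
Log2 fold change of each of 270 members (y axis) against its mean WT level in TPM on a log2 scale (x axis) in the 3 comparisons, with called members in red. A large rise from silence cannot appear in the panels against WT, since members had at least 1 TPM there, and Zfp612, Zfp111, Zfp850, Zfp810, Zfp239 and Zfp618 are on the upper side of the right panel.

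Calls in ATRXΔRBR were counted by the KRAB box. Of 89 members with the strict KRAB box, 3 were called (3.37%), all lower, and of 181 without, 7 were higher and 10 were lower (9.39%), beside 6.85% of all genes tested. With the wider pattern, 3 of 133 were higher and 6 were lower (6.77%), a share near that of all genes and in both directions. A list of 26 heterochromatin genes held the machinery that KRAB proteins recruit, ATRX with DAXX and histone H3.3, and enzymes of H3K9 and DNA methylation. None passed the test in ATRXΔRBR, with 0 of 26 listed genes called and 5 at an unadjusted p under 0.05 (19.2%, beside 20.6% of all genes tested). Trim28, the KRAB corepressor, had a log2 fold change of 0.09, Setdb1, its methyltransferase partner, 0.12, and Fam208a, a HUSH complex subunit, 0.70 with an edgeR adjusted p of 0.074. In ATRX KD against WT, 8 of 26 were higher and 1 was lower (34.6% in either direction, beside 33.0% of all genes tested and 41.4% of expressed protein-coding genes). The higher ones were 30.8%, beside 15.2% and 19.1%, among them Chd3, a nucleosome remodeler (0.99), Dnmt3a, a DNA methyltransferase (0.97), Fam208a (0.80) and Morc2a (0.75), and Hdac2, a histone deacetylase, was lower (-0.55). The 48 expressed Zbtb, Zkscan and Zscan genes are relatives with other domains. They had 1 lower and 0 higher calls in ATRXΔRBR (2.08%, beside 6.85% of all genes tested), with 5 at an unadjusted p under 0.05 (10.4%). Against WT, 11 of them were higher and 1 was lower in ATRX KD (22.9% and 2.08%, beside 15.2% and 17.8% of all genes tested). These differences in share were not tested.

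ATRX peaks lay at the start of a minority of members. Within 2 kb of the start (TSS) in either direction, 21.5% and 12.6% of members had an ATRX peak in the WT lists and 19.3% and 7.41% in the ATRXΔRBR lists. Other expressed genes had 21.4% and 10.0% in WT and 24.9% and 8.69% in ATRXΔRBR. The lists of 1 genotype differed more than the genotypes, and the exact permutation test of ATRXΔRBR against WT gave p = 0.667, in a design of 2 against 2 that cannot go below 0.333. Zfp36, an mRNA decay factor, Zfp143, a promoter-binding activator, Zfp367, Zfp622, Zfp654, Zfp760 and Zfp994 had an ATRX peak at the start in all 4 lists. Zfp672, Zfp444, Zfp53, Zfp944 and Zfp758 had one in both WT lists and none in ATRXΔRBR, and 0 members had the reverse. Zfp944 and Zfp758 share the same peak. Among 10904 other expressed genes, 313 (2.87%) had a peak in all 4 lists, 75 (0.69%) in both WT lists only and 70 (0.64%) in both ATRXΔRBR lists only. None of the 12 members was called in ATRXΔRBR RNA, beside 5.43% of the 313 and 1.33% of the 75 other expressed genes.

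ATRX peaks in the last exon were rare in these lists, in members as in other expressed genes. This exon holds most of the coding length of the median member. A peak inside the gene but away from the start was found in 14 and 7 members in WT and in 10 and 5 in ATRXΔRBR, of 270. Over the length of the bodies these were 0.31 and 0.11 peaks per 100 kb in WT, beside 0.48 and 0.26 in other expressed genes. A last-exon peak was found in 1 and 0 members in WT and in 1 and 0 in ATRXΔRBR, which is 0.37% and 0% in each. Of 10904 other expressed genes, 66 and 27 had one in WT (0.61% and 0.25%) and 52 and 33 in ATRXΔRBR (0.48% and 0.30%). The WT peak was in Zfp738 at chr13:67660714-67661152, outside the coding part, and no member had such a peak in both lists of a genotype. The ATRXΔRBR peak was in Zfp940 and lay with all of its 195 bases in the coding part. Among ATRX peaks that did not touch the 2 kb on each side of the start, no other lay in the coding part of a member's last exon. Peaks that touched this window were counted at the start only, also where they reached a last exon. The sequence of the Zfp940 peak on mm10 at chr7:29844799-29844993, minus strand, is printed for this reason. The linker letters ACNGGNGANAANCCN have no match in it, so that it carries no capitals, and 2 of 6249 ATRX peaks on the assembled chromosomes of that list held them.
Zfp940: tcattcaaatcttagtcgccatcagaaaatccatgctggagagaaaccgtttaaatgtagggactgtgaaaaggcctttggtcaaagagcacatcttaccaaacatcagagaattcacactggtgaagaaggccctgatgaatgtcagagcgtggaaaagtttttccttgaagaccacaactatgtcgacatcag

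EZH2 peaks at the start of members were frequent and varied widely between replicates. For WT, 79.3% and 70.0% of members had one, in ATRXΔRBR 81.9% and 46.3%, and in ATRX KD 23.3% and 31.5%. Other expressed genes had 81.1% and 75.1%, 82.9% and 55.7%, and 30.5% and 39.9%. The EZH2 lists held 22316 and 18351 peaks (WT), 22418 and 11408 (ATRXΔRBR) and 5376 and 7093 (ATRX KD), and the shares moved with these numbers in both classes of gene. Their part in the result was not tested. The exact permutation p against WT was 1 for ATRXΔRBR and 0.333, the smallest it allows, for ATRX KD. The share rose with the WT level: in WT replicate 1 it was 58.0% of the 81 members under 5 TPM, 85.3% of the 116 between 5 and 20 TPM and 93.2% of the 73 above, and 60.0%, 77.9% and 86.1% of other expressed genes in the same ranges. Zfp57, Zfp800, Zfp954, Zfp949, Zfp84, Zfp945 and Zfp870 had an EZH2 peak in both WT lists and none in ATRXΔRBR, and none of them was called in ATRXΔRBR RNA. These were 2.59% of members, beside 108 (0.99%) of other expressed genes, of which 18.5% were lower in RNA. The reverse was found in 0 members and 0 other expressed genes.

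**Figure D4:**
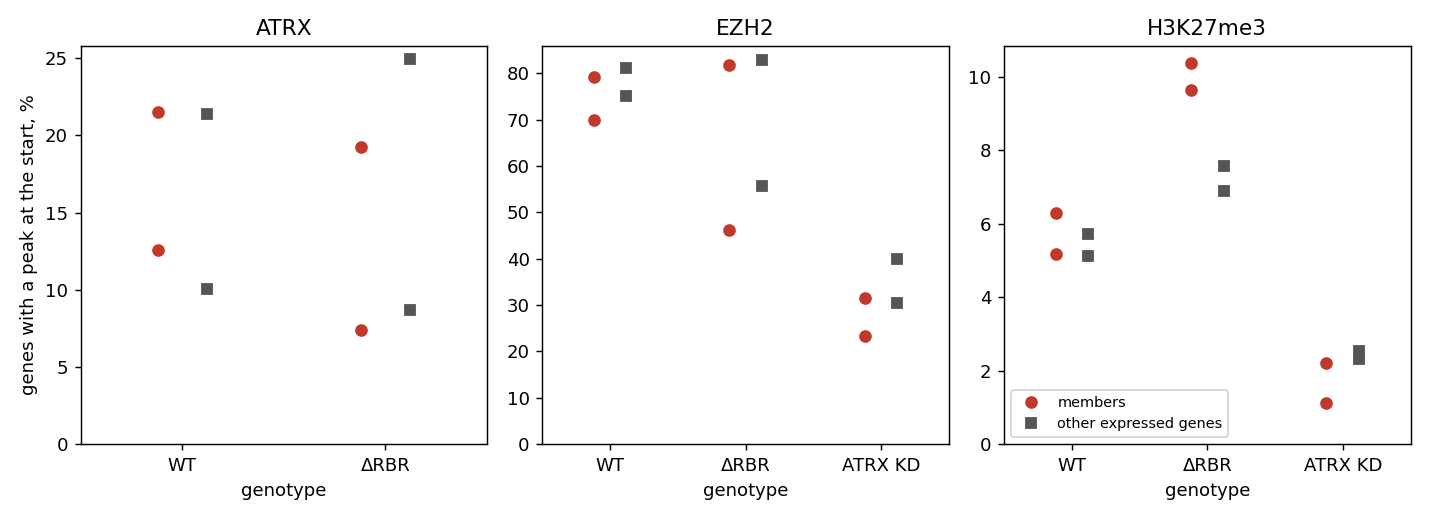
Percent of genes with a peak within 2 kb of the start (y axis) for members (circles) and other expressed genes (squares), each point a peak list, in each genotype (x axis). The EZH2 points of ATRXΔRBR lie far apart, at 81.9% and 46.3% of members, and the H3K27me3 points of the 3 genotypes do not overlap.

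H3K27me3 reached the start of few members in WT and of more in ATRXΔRBR. In WT 14 and 17 of 270 members had a peak (5.19% and 6.30%), in ATRXΔRBR 28 and 26 (10.4% and 9.63%) and in ATRX KD 6 and 3 (2.22% and 1.11%). The shares did not overlap between genotypes, and the exact permutation p was 0.333 for both comparisons with WT, the smallest it allows. Other expressed genes went from 5.13% and 5.72% in WT to 7.56% and 6.88% in ATRXΔRBR. These shares depended on the level: under 5 TPM, 6.17% and 7.41% of members had a peak in WT and 13.6% and 11.1% in ATRXΔRBR, beside 19.5% and 20.9% and then 21.2% and 19.7% of other expressed genes. Between 5 and 20 TPM the members had 6.90% in each WT list and 8.62% in each ATRXΔRBR list. Other expressed genes of that range rose more, from 6.49% and 7.15% to 10.2% and 9.60%. At 20 TPM or more the members had 1.37% and 4.11% in WT and 9.59% in each ATRXΔRBR list. Other expressed genes had 2.01% and 2.43% and then 4.10% and 3.53%. The H3K27me3 lists held 36011 and 38832 peaks (WT), 38651 and 33105 (ATRXΔRBR) and 7241 and 6336 (ATRX KD). Their median width was 1213 and 1267 bases in WT and 1838 and 1902 in ATRXΔRBR. The part of peak width in these shares was not tested. When at least 50% of a peak had to lie in the window, the mean shares were 3.70% in WT and 2.96% in ATRXΔRBR, so that the order turned. The widest peaks, such as those over 10 kb at Zfp101, Zfp512 and Zfp946 in ATRXΔRBR, cannot meet this limit by their width alone, since the whole window is shorter than the part they would need inside it.

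The members with a peak at the start in both ATRXΔRBR lists and none in WT were Zfp101, Zfp12, Zfp185, Zfp275, Zfp503, Zfp512, Zfp647, Zfp704, Zfp738, Zfp846 and Zfp946. Zfp185 and Zfp275 lie near each other on chromosome X. Of these 11, 3 were lower in ATRXΔRBR RNA (Zfp503, Zfp704 and Zfp185) and 0 were higher. Among other expressed genes, 290 gained a peak in this way, of which 62 were lower and 5 were higher. That is 27.3% lower among the members and 21.4% among the others, a difference that was not tested. The members' share rests in part on Zfp185, whose call was lost without WT replicate 1 or either ATRXΔRBR library and with DESeq2. Such shares were not limited to gains. Of genes with a peak in all 4 lists, 2 of 9 members (22.2%) and 26.5% of 347 others were lower, and of those with a peak in both WT lists and none in ATRXΔRBR, 1 of 3 members and 35.3% of 139 others were lower. Of the 238 members with no H3K27me3 peak at the start in any WT or ATRXΔRBR list, 5 were lower and 7 were higher, which is 2.1% lower, beside 2.87% of the 9796 others.

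At Zfp503 the peak was 6573 and 5377 bases wide in ATRXΔRBR, at chr14:21982781-21989353 in replicate 1. At Zfp704 it was 8181 and 8701 bases wide, at chr3:9607138-9615318 in replicate 1. At Zfp185 the peaks were 2533 and 1638 bases wide. Zfp101, Zfp512 and Zfp946 had wide peaks too, of 17.9 and 10.2 kb, 11.1 and 12.2 kb, and 11.9 and 11.7 kb in sum, and were not called in RNA. The peaks at Zfp101 and Zfp512 lay to one side of the start, toward Adamts10 and Fndc4, which were lower in ATRXΔRBR (log2 fold change -1.05 and -1.87, edgeR adjusted p = 0.026 and 0.0018). The peaks at Zfp946 also lay to one side of the EZH2 peak at its start. Its neighbours Zfp758 and Zfp945, with log2 fold changes of -0.10 and 0.66, were not called. Such a place was not limited to genes without a call. At Zfp185 the peaks ended at 72986497 and 72986323, before the EZH2 peak of WT replicate 1, which began at 72987030. The EZH2 peak of ATRXΔRBR replicate 1 at Zfp185 began at 72986142 and overlapped them. Apart from Adamts10 and Fndc4, no direct neighbour of the 11 genes was called.

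Zfp612 and Zfp618, near 0 counts in ATRXΔRBR, had H3K27me3 at the start in both WT lists already. The summed width at Zfp612 was 5.51 and 9.10 kb in WT and 10.6 and 8.76 kb in ATRXΔRBR, and further peaks lay over its last exon in all 4 of these lists. At Zfp618 it was 2.28 and 1.14 kb in WT, 10.3 and 7.78 kb in ATRXΔRBR, and 1.36 and 1.77 kb in ATRX KD. Zfp422 had 3.64 and 4.40 kb in WT and none in ATRXΔRBR or ATRX KD, while its RNA was low in both. Zfp850, Zfp810 and Zfp239 had no H3K27me3 peak at the start in any list, and Zfp111 had one in a single ATRXΔRBR list. Over its last exon, Zfp111 had a peak in both ATRXΔRBR lists, 1790 and 1497 bases wide, and in neither WT list. A last-exon H3K27me3 peak was found in 1.11% and 0.37% of members in WT and 1.85% and 1.85% in ATRXΔRBR, beside 0.71% and 0.83% and 0.98% and 0.89% of other expressed genes. The near-silent members were therefore not of a single kind in H3K27me3. None of the 10 members near 0 counts in a genotype had an ATRX peak at the start in any of 4 lists, as was the case for 186 of all 270 members (68.9%). Zfp618 had ATRX peaks inside the gene, away from the start, in 3 lists (each WT list and that of ATRXΔRBR replicate 2).

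Both WT lists held a peak at the start of 12 members, of which 9 kept one in both ATRXΔRBR lists (Zfp54, Zfp593, Zfp612, Zfp617, Zfp618, Zfp707, Zfp759, Zfp870 and Zfp959) and 3 had none there (Zfp422, Zfp664 and Zfp800). These were 3.33% and 1.11% of members, beside 347 (3.18%) and 139 (1.27%) of other expressed genes. In ATRX KD, Zfp618, Zfp759 and Zfp800 had a peak in both lists and the other 9 had none, beside 148 (1.36%) and 293 (2.69%) of other expressed genes. Zfp54 had the widest, 12.3 and 12.9 kb in WT and 21.4 kb in ATRXΔRBR replicate 1.

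**Figure D5:**
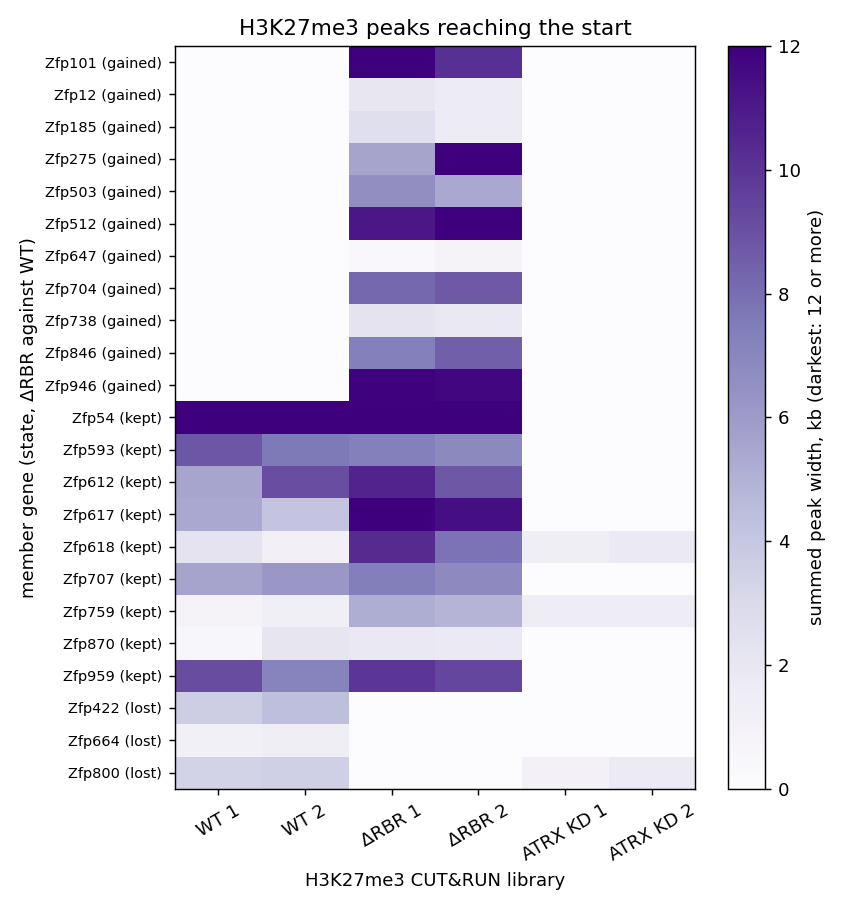
Summed width in kb of the H3K27me3 peaks that reach within 2 kb of the start (color) for 23 members (rows) in the 6 H3K27me3 libraries (columns). Genes named gained are empty in WT and filled in both ATRXΔRBR lists, and most genes are empty in ATRX KD.

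Promoter sequence is shown for members that differed in H3K27me3 at the start, from RefSeq on GRCm38.p6 (250 bases before to 50 after the RefSeq start), with each CG in capitals, the dinucleotide that PRC2 target promoters are often rich in. RefSeq entries matched 223 of 270 members. The median member promoter held 15 CG, that of the other expressed genes 22 and the median of all 32851 RefSeq promoters 7, and 94.6% of all promoters held at least 1. Zfp618, with H3K27me3 in WT and wider peaks in ATRXΔRBR, held 59 at chr4:62965317-62965616, plus strand, and 0.1% of all promoters held as many or more. Zfp503, with a peak in ATRXΔRBR only, held 19 at chr14:21989552-21989851, minus strand. Zfp850 had no H3K27me3 peak at the start in any list, and Zfp110 had one of 294 bases in ATRX KD replicate 1 alone. Zfp850 and Zfp110, near 0 counts in ATRXΔRBR and in ATRX KD, held 17 at chr7:28014066-28014365, minus strand, and 15 at chr7:12834511-12834810, plus strand. Counts as high as those of Zfp503, Zfp850 and Zfp110 were in 28.1%, 31.4% and 34.6% of all promoters. Zfp704 and Zfp612 were not matched.
Zfp618: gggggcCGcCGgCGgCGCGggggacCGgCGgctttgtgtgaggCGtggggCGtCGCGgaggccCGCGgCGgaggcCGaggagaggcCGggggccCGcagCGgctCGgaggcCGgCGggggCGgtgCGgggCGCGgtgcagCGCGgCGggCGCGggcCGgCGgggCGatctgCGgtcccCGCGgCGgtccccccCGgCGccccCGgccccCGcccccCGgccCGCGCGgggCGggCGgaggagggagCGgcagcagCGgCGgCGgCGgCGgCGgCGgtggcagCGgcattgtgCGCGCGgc
Zfp503: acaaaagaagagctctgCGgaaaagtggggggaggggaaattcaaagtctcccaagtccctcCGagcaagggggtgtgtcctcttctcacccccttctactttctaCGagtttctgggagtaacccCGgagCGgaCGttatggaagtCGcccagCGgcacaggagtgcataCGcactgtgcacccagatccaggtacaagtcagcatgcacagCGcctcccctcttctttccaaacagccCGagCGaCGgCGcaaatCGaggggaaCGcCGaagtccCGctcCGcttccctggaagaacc
Zfp850: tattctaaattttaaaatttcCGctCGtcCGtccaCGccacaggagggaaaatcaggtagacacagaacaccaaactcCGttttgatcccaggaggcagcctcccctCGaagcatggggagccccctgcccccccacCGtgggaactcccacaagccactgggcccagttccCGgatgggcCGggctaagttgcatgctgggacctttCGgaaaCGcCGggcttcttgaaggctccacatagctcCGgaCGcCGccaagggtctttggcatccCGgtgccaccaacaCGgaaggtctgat
Zfp110: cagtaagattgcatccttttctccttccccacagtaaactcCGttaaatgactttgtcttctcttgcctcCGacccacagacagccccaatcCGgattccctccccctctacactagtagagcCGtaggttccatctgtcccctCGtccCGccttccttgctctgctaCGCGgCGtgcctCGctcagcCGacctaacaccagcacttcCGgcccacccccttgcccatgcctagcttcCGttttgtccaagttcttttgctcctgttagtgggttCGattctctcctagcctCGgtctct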

How the data were processed

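RNA-Seq (polyA, directional kit) and CUT&RUN files of 22 libraries were used; the IgG libraries were not analysed here. The authors computed the deposited estimated counts and TPM values with STAR and RSEM, and called the deposited peaks per library with MACS2 in broad mode after mapping to mm10 with Bowtie2. The deposited fold enrichment ratio and −log10 q-values of peaks are MACS2 output; the deposited −log10 p-values and scores, and the deposited FPKM values, which the authors computed with RSEM, were not used. The study gives an approximate number of reads per sample and not the depth behind each peak list, so no depth is given per list.

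Estimated counts were rounded and fitted with edgeR 4.0.16 (TMM, quasi-likelihood) on genes whose 4 libraries summed to over 10 counts, with Benjamini-Hochberg adjustment over all genes tested. On simulated counts for ATRXΔRBR against WT (15924 genes), the fit recovered 43 of 89 genes changed by 1 on the log2 scale and 111 of 111 changed by 2, with 6 false calls. The simulation gave every gene the same dispersion and no shift between replicates. It changed only genes above a floor of mean counts. These rates are therefore a check of the fit and not error rates of the real data. Peaks were placed by 1 base of overlap with the region within 2 kb of the gene start, the gene body, or the last exon of the chosen GENCODE M21 transcript. A peak that touched the region at the start was not counted in the body or the last exon. Shares were compared by a two-sided exact permutation test over libraries. Finger and KRAB patterns were searched in translated GENCODE coding sequences, since a RefSeq protein table was not used here.

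The members and lists were chosen with earlier results of these data known. Genes were named by rule: called members, up to 12 in each direction of a comparison, by the size of the change; ATRX last-exon peaks; H3K27me3 at the start in both WT lists; EZH2 at the start in both WT lists and none in ATRXΔRBR or the reverse; the 5 highest levels; and the 3 on each side of the threshold. Others, such as the members near 0 counts and the H3K27me3 gains, were named after their values were seen. DESeq2 1.42.0, other filters, a replicate block, each library left out and other windows were tried as alternatives.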

Additional observations from a re-analysis of the deposited data

How the results depend on the processing

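The number of members called in ATRXΔRBR against WT was 20, and 17 with DESeq2 (6.30% of members, beside 6.92% of all genes), 21 with its size factors, 29 with no filter on low counts (10.7% beside 7.45%), 25 in a single fit of all 6 libraries (9.26% beside 9.66%), 10 with at least 10 counts in every library (3.88% beside 5.005%), 13 with a rule of at least 2 TPM, and between 15 and 24 when a library was left out. The filter of 10 counts in every library removes the near-silent genes by its construction. Members called in ATRX KD numbered 67 against WT and 86 against ATRXΔRBR, and between 35 and 145 and between 54 and 143 when a library was left out. Against WT they were 119 without WT replicate 1, 145 without WT replicate 2, 40 without ATRX KD replicate 1 and 35 without ATRX KD replicate 2. Against ATRXΔRBR they were 143 without ATRXΔRBR replicate 1, 55 without ATRX KD replicate 1 and 54 without ATRX KD replicate 2. With no filter they were 81 and 102, and the all-gene shares then count genes of few reads. The cause was not tested. Replicate numbers did not pair the samples (correlation of deviations -0.683 for WT with ATRXΔRBR, -0.139 and 0.167 for the others); the replicate block gave 17, 74 and 106 calls, and a crossed pairing, chosen after seeing the data, gave 87, 87 and 94, which is 32.2%, 32.2% and 34.8% of members beside 34.2%, 38.5% and 33.4% of all genes. Zfp185 lost its call in ATRXΔRBR without WT replicate 1 or either ATRXΔRBR library and with DESeq2, Zfp248 without any single library and with DESeq2, Zfp110 without WT replicate 1 or ATRXΔRBR replicate 1, Zfp282 without WT replicate 1, Zfp605 without ATRXΔRBR replicate 1, and Zfp13, Zfp956 and Zfp820 without ATRXΔRBR replicate 2. In ATRX KD, Zfp612 lost its call without either ATRX KD library and Zfp932 without WT replicate 2 or ATRX KD replicate 2, and both with DESeq2. No named member that was called turned its direction under any alternative run. This does not cover the small fold changes of genes that were not called, such as Atrx in ATRX KD, the neighbours or the listed heterochromatin genes. At a q-value of 0.01 or less the share of members with a peak at the start was 9.44% for ATRX in WT, 61.9% and 17.8% for EZH2 in WT and ATRX KD, and 3.70%, 8.52% and 0.37% for H3K27me3 in WT, ATRXΔRBR and ATRX KD. A window of 1 kb gave 3.52% and 6.48% for H3K27me3 in WT and ATRXΔRBR, an overlap of 50% of the peak gave 3.70% and 2.96%, which is the reverse order and which the widest peaks fail by their width alone, and a rule of 0.5 TPM gave 2.6% in ATRX KD. With 2 libraries a group, no exact permutation test of shares can pass 0.05.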

Other observations

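Zfp genes below 1 TPM in a WT library, which are outside the rule, also had members near 0 counts. Zfp521, a hematopoietic and mesenchymal transcription factor, had 31 and 27 counts (WT), 0 and 0 (ATRXΔRBR) and 0 and 0 (ATRX KD). Zfp984 had 8 and 13 (WT), 0 and 0 (ATRXΔRBR) and 46 and 75 (ATRX KD), and its counts may be shared with close copies. Zfp286 was higher in both, with 7 and 8 counts (WT), 33 and 42 (ATRXΔRBR) and 116 and 245 (ATRX KD), a log2 fold change of 2.43 ± 0.42 (SE, edgeR adjusted p = 0.013) and 4.29 ± 0.29 (edgeR adjusted p = 0.0002). Of the 95 such genes 43 could be tested in ATRXΔRBR against WT, and 5 were lower and 1 was higher (11.6% and 2.33%, beside 4.07% and 2.79% of all genes tested); these genes were named after their values were seen.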
